A study of Mus musculus with 17 samples.

Results

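Skin fibroblasts in which Lrig1 RNA was detected were compared with those in which it was not. The members were chosen by the measured Lrig1 value itself. A cell counts as Lrig1-detected at a deposited value of 1 or more and as Lrig1-undetected below 1. The deposited values are read as log2(FPKM + 1), so that on this reading 1 stands for an FPKM of 1. FPKM counts fragments mapped to a transcript, scaled for its length and for the library's total. The sorted values are nearly the same in every cell, and 4369 genes reach 1 in each. Detection at 1 thus marks the same rank in every cell, and not a measured FPKM of 1 in that library. By the threshold of 1, 10 of the 17 cells were Lrig1-detected and 7 were Lrig1-undetected. All 17 are single Tomato-positive cells sorted from the back skin of adult C57BL/6 mice of the genotype Prrx1-CreERT;Tomato. In these mice Prrx1 sequences drive a Cre recombinase that tamoxifen switches on, and a cell in which Cre has acted keeps the red Tomato reporter together with its descendants. Every mouse received tamoxifen at 2 mg per 30 g once daily on 3 days. The 2 sets of cells therefore share strain, genotype, treatment and sort, and were divided only by the Lrig1 value. The number of mice is not given and no animal is named for a cell, so the cells form 1 group. All values below are descriptions of these 17 libraries without a test.

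Lrig1 encodes a single-pass membrane protein with leucine-rich repeats and immunoglobulin-like domains. It binds the EGF receptor and its relatives and promotes their ubiquitination and breakdown, and so dampens growth factor signalling. In skin it is known as a marker of stem cells in the upper hair follicle. In the dermis it is known as a marker of the early fibroblasts that give rise to the papillary layer, the upper layer next to the epidermis. The lower layers are the reticular dermis, the fat layer and the fascia.

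Lrig1 (ENSMUSG00000030029) lies on the minus strand of chromosome 6, from 94604529 to 94700158 in GRCm38. Its RefSeq promoter (GRCm38.p6, chr6:94700096-94700395, minus strand, 250 bases before and 50 after the start) is shown because this is the gene by which the cells were divided. Capitals mark the letters GGGCGG, the GC box, searched on both strands.

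Lrig1: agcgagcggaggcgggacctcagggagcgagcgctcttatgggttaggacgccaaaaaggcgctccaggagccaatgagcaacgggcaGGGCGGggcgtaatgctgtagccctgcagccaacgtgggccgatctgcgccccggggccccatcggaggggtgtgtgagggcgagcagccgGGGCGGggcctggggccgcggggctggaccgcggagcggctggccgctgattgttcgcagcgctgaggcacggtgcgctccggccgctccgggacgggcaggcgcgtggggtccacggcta

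This promoter held 2 GC boxes and no TATAAA, and 73% of its bases were G or C. Among 32851 RefSeq promoters of the same length, 35.7% held a GC box, 19.5% held 2 or more, 13.6% held TATAAA, and the median GC content was 52.7%. RNA was the only readout, so the data do not bear on what binds there. At the other end of the gene, the last 144 bases of Lrig1 (94604529 to 94604672) overlap the end of Slc25a26, a mitochondrial carrier gene on the plus strand. The kit captures the 3′ ends of transcripts, and whether strand was used in counting is not given in the sources used here, so reads from that stretch cannot be assigned to one of the genes. Slc25a26 was detected in 8 of 10 Lrig1-detected and 3 of 7 Lrig1-undetected cells, with mean values of 2.81 (SD 1.68, n = 10 cells) and 1.68 (SD 2.01, n = 7 cells).

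The 10 Lrig1-detected cells had Lrig1 values of 3.28, 7.16 and 8.56 in cells 2, 3 and 4, then 7.61, 8.43, 7.46, 7.83, 8.32 and 8.01 in cells 7 to 12, and 1.50 in cell 13. Their mean was 6.82 (SD 2.41). The 7 Lrig1-undetected cells had values of 0.23 in cell 1, 0.72 in cell 6, 0.76 in cell 14, 0.82 in cell 15 and 0.22 in cell 16, and 0 in cells 5 and 17. Their mean was 0.39 (SD 0.36). Most cells were thus either high or near the bottom of the scale. Only cells 2 and 13 lay between, at 3.28 and 1.50, the lowest of the Lrig1-detected values. Cells 15 and 14 held the highest of the Lrig1-undetected values. At FPKM 10 or more (3.46 on this scale) Lrig1 was found in 8 cells.

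**Figure D1:**
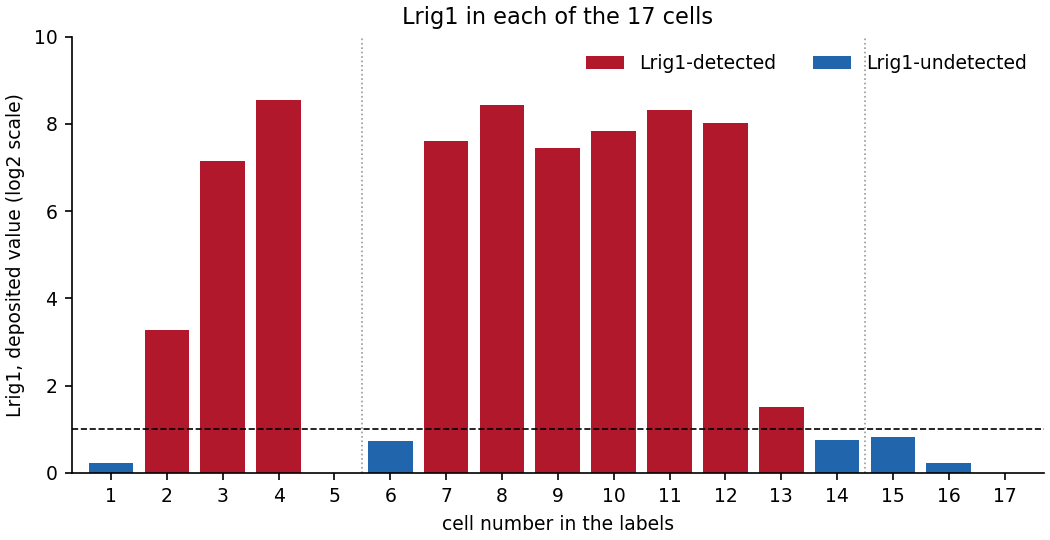
Deposited Lrig1 value (log2 scale) in each of the 17 cells, with the detection threshold of 1 dashed and dotted lines dividing cells 1 to 5, 6 to 14 and 15 to 17. Of the 10 red bars 8 lie between 7.16 and 8.56, cells 2 and 13 lie at 3.28 and 1.50, and the 7 blue values do not exceed 0.82.

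The Lrig1-detected cells were not spread evenly over the libraries. Consecutively numbered cells have similar low values across genes and fall into 3 sets on those values, which are no groups of the study. Among cells 1 to 5 there were 3 Lrig1-detected cells of 5, among cells 6 to 14 there were 7 of 9, and among cells 15 to 17 there were none of 3. Cells 15 to 17 thus make up 3 of the 7 Lrig1-undetected cells. Values within numbered sets rest on the other 14 cells. They are given beside many of the differences they lower or raise, but not beside all. Read depth is unknown. As the remaining sign of library complexity, the count of genes at the bottom of the scale ranged from 880 to 1492 (median 1184.5) in Lrig1-detected and from 871 to 1766 (median 1425) in Lrig1-undetected cells. It was 1425, 1467 and 1766 in cells 15, 16 and 17.

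Both sets of cells carried a fibroblast profile. Of 17 fibroblast markers with a row in the table, 16 or 17 were detected in each cell of either set, and the summed marker level had a median of 137 in Lrig1-detected and 138 in Lrig1-undetected cells. The median difference over these markers was 0.04. Pdgfra, the fibroblast receptor for platelet-derived growth factor, was detected in every cell, with means of 5.13 (SD 1.64) and 5.76 (SD 0.94). Of the 15 upper-follicle keratinocyte markers other than Lrig1, 3 have a row. Their summed level ranged from 0.39 to 10.1 in Lrig1-detected and from 0.32 to 6.77 in Lrig1-undetected cells. Of these, Sox9, a follicle stem cell transcription factor, was detected in 6 of 10 and 3 of 7 cells, and Krt10, a keratin of the upper epidermis, in 2 of 10 and 3 of 7. Their highest single values were 6.91 for Sox9 in the Lrig1-detected cell 7 and 5.63 for Krt10 in the Lrig1-undetected cell 1. In the opposite sets Sox9 reached 2.72 and Krt10 3.33. Both genes were thus detected in each set. Outside this marker list, the keratinocyte products Krtdap and Dmkn were detected in 7 of 10 and 7 of 7, and in 1 of 10 and 5 of 7 cells. Both were highest in cell 15, at 13.69 and 11.49, and are described further below. Whether the RNA of these 4 genes came from epithelial cells was not tested.

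Of the other cell types, few markers have a row. The median summed level was 15.1 against 18.4 for 4 endothelial markers and 4.35 against 5.48 for 6 mural cell markers (Lrig1-detected first). Most of the endothelial sum came from Ly6c1, which is also among the fascia and adventitia genes below and averaged 11.85 and 11.94. The mean difference of 1 of the 4 endothelial markers was -2.34, past the level call of 2 that is set below. Of all genes 2.72% were lower by that call. The median summed level was 0.13 against 3.15 for 2 immune markers and 2.55 against 1.75 for 2 Schwann cell markers. For 1 melanocyte marker it was 0.18 against 0.16, for 3 adipocyte markers 9.01 against 4.43 and for 1 erythroid marker 1.95 against 1.56. By mean the adipocyte order was the opposite, at 2.58 (SD 1.51) against 2.76 (SD 2.48) per marker. The highest adipocyte sum was 13.1 against 22.1, and the mean differences ran from -2.13 for Car3 to 1.54 for Cfd. Skeletal muscle markers were not analysed here. The ranges of the 2 sets overlapped for each of these marker sets, and the part of other cell types in the differences below was not tested.

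Over the whole transcriptome the Lrig1-detected cells resembled one another no more than they resembled the other cells. The median Spearman correlation over genes was 0.466 among the 45 pairs of Lrig1-detected cells, 0.468 among the 21 pairs of Lrig1-undetected cells and 0.462 among the 70 pairs with one cell of each kind. Pairs share the normalisation and, within a numbered set, the form of the low values. Within a numbered set the medians were 0.484, 0.498 and 0.504 in the same order, and between sets they were 0.443, 0.457 and 0.445. The numbered set made more difference to these medians than Lrig1 did.

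**Figure D2:**
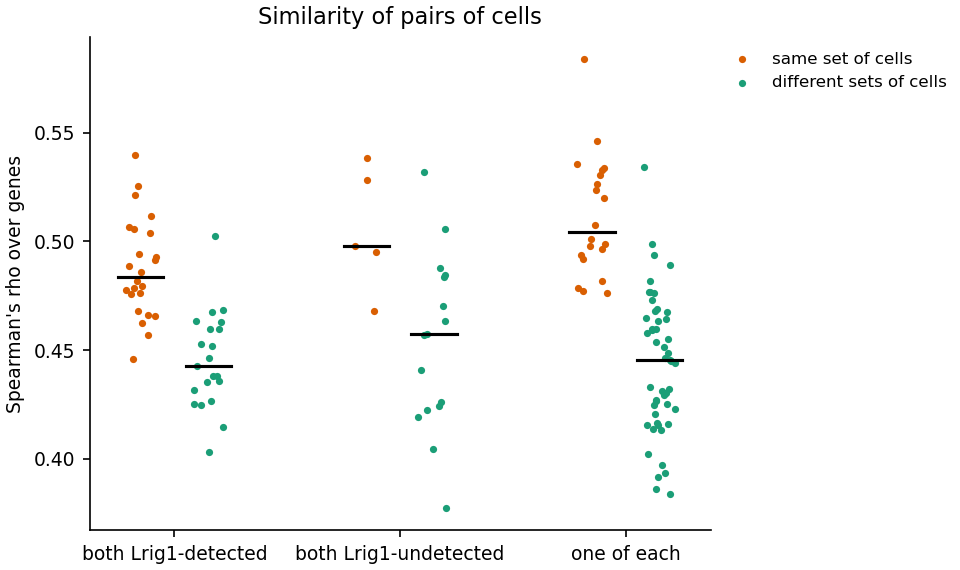
Spearman's rho over genes for each pair of cells (points) by Lrig1 status of the pair, with pairs inside one numbered set in orange, pairs from different sets in green and medians as black bars. The medians of the 3 kinds of pair lie between 0.484 and 0.504 within sets and between 0.443 and 0.457 between sets.

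Gene by gene, 7550 genes reached a value of 1 in at least 3 of the 17 cells, with Lrig1 left out. The mean of the Lrig1-detected cells minus that of the Lrig1-undetected cells had a median of 0.01 over these genes, and 69.0% of genes differed by less than 1. A difference of 2, which is 4-fold on this scale, was set as the level call. By it 180 genes (2.38%) were higher and 205 (2.72%) were lower in Lrig1-detected cells. In detection, 114 genes (1.51%) were found in a share of Lrig1-detected cells at least 50 percentage points larger. Another 103 (1.36%) were found in a share at least 50 points smaller. The sorted values are nearly the same in every cell, with 4369 genes at 1 or more in each. A median difference near 0 and a near balance of gains and losses in detection largely follow from that form. They are not read as results about the cells. No gene separated the sets: in 0 of 7550 genes (0%) were all Lrig1-detected values above all others, and in 0 (0%) were they all below. The level counts were 320 and 397 when cells were compared within their numbered sets, and 286 and 360 without cells 15 to 17. With 17 cells and this many genes, the most extreme genes named below are the ends of a broad distribution.

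**Figure D3:**
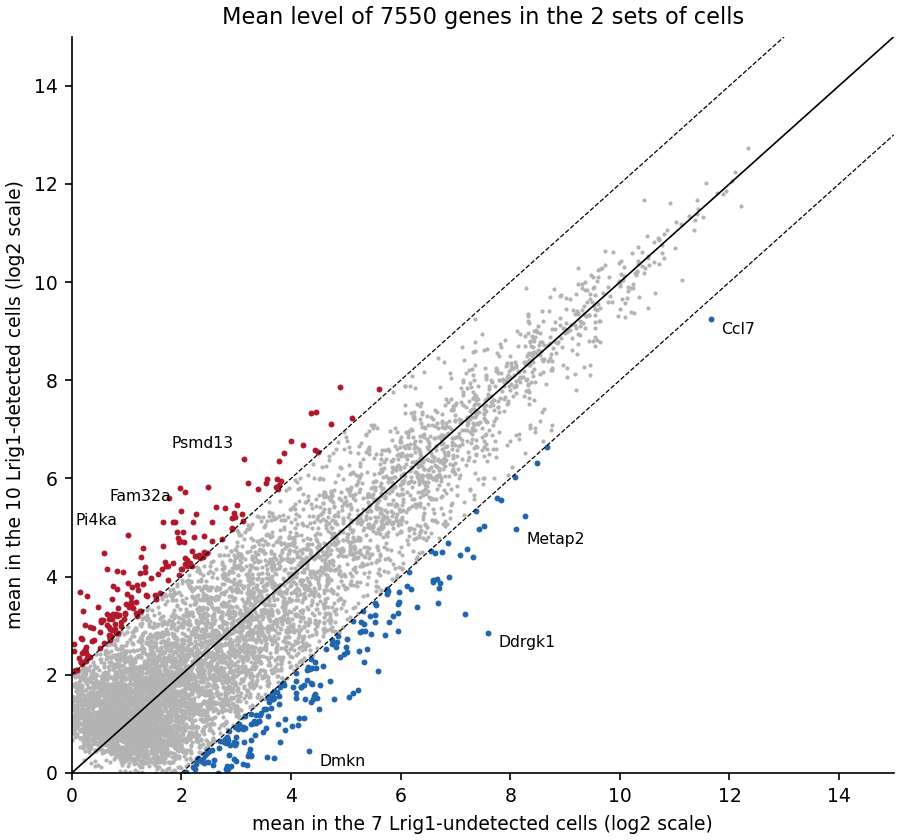
Mean deposited value (log2 scale) of each of 7550 genes in the 7 Lrig1-undetected cells (horizontal) against the 10 Lrig1-detected cells (vertical), with the line of equality and dashed lines at a difference of 2. The 180 genes higher by 2 or more are red and the 205 lower ones blue, and most lie at low or intermediate means.

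The gene whose detection came closest to that of Lrig1 was Pi4ka, the kinase that makes phosphatidylinositol 4-phosphate at the plasma membrane (ENSMUSG00000041720, chromosome 16, 17280351 to 17406314). Its values in Lrig1-detected cells ran from 1.01 to 7.98 with a median of 5.11. In Lrig1-undetected cells they were 0.01, 0, 0.75, 0.46, 0.51 and 0.05, and 5.35 in cell 17. Pi4ka was thus on the same side of the threshold as Lrig1 in 16 of 17 cells, and cell 17 alone differed. The difference of the means was 3.82 (4.84, SD 2.60, against 1.02, SD 1.93).

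A further 5 genes were on the same side as Lrig1 in 15 of 17 cells. Ccdc137, a coiled-coil protein gene, was detected in 8 of 10 Lrig1-detected cells and in none of the other 7, with a difference of 3.55. Its Lrig1-undetected values did not exceed 0.42. Spon1, which encodes the secreted matrix protein spondin, had values from 0.84 to 6.14 (median 3.28) in Lrig1-detected cells and from 0.24 to 2.37 (median 0.43) in the others. In 67 of the 70 pairs of one Lrig1-detected and one Lrig1-undetected cell, Spon1 was higher in the former, which was the most for any gene. Soat1, the enzyme that esterifies cholesterol, and Ube2w, a ubiquitin-conjugating enzyme, were each detected in 9 of 10 and 1 of 7 cells, and differed by 2.84 and 3.14. Gadd45gip1, a protein of the mitochondrial ribosome, was detected in 10 of 10 and 2 of 7 cells and differed by 2.06. None of these genes followed Lrig1 in every cell. For scale, 397 genes other than Lrig1 were detected in exactly 10 of the 17 cells.

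At the opposite end stood Rnf144a, a ubiquitin ligase. Its values did not exceed 0.16 in the 10 Lrig1-detected cells. In the Lrig1-undetected cells they were 0.10, 3.28, 3.33, 2.95, 2.68, 5.47 and 2.15, so that 6 of these 7 were past the threshold and the sets overlapped only through cell 1. The difference was -2.78. Spen, a transcriptional corepressor, and Plau, the urokinase plasminogen activator that cleaves plasminogen at the cell surface, were each detected in all 7 Lrig1-undetected cells and in 2 of 10 Lrig1-detected cells. Dcaf7, a scaffold protein, was detected in 6 of 7 and 1 of 10. Spen differed by -1.76 over all cells, by -1.03 within numbered sets and by -0.01 among cells 6 to 14. Its value in the Lrig1-undetected cell 14 lay only just past the threshold. For Plau the same differences were -1.72, -1.68 and -2.44. Map2k5, a kinase of the ERK5 pathway, was lower in Lrig1-detected cells in 69 of 70 pairs, yet it was detected in only 3 cells and differed by -1.18. Most of that ordering lies among values below the detection threshold.

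The 15 genes with the largest positive differences have varied functions. Cacfd1, a membrane protein gene, differed most (3.90), with a median of 5.37 in Lrig1-detected and 0.20 in Lrig1-undetected cells and detection in 8 of 10 and 1 of 7. Rnaseh2c, a subunit of the nuclease that removes RNA from RNA-DNA hybrids, differed by 3.84 and was detected in 9 of 10 and 5 of 7 cells. Fh1, the fumarate hydratase of the citric acid cycle, differed by 3.83. Mrps11 of the mitochondrial ribosome differed by 3.53 (7 of 10 and 1 of 7 cells). Psmd13, a subunit of the proteasome cap, differed by 3.25, and Sharpin, a subunit of the linear ubiquitin ligase, by 3.33.

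Fam32a was the most even of these genes. Its values in Lrig1-detected cells stayed between 3.81 and 6.72 (median 5.13, SD 0.84), while the Lrig1-undetected cells had 4.78, 2.54, 4.91, 0.24, 0, 1.48 and 0. The sets overlapped through cells 1 and 6. The difference was 3.34, and Fam32a was higher in the Lrig1-detected cell in 66 of 70 pairs.

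The others with large positive differences were Hist1h4d, a histone H4 gene (3.66), Rgcc, a regulator of the cell cycle (3.45), Lrif1, a chromatin-associated protein (3.32), and Pnisr, a serine- and arginine-rich nuclear protein (3.27). Lrif1 was detected in 6 of 10 and 0 of 7 cells. Klk1b1 (3.29) and Klk1b27 (3.28) are kallikrein protease genes of a family with near-identical copies, and Klk1b24 differed by 3.02. Reads of such copies may be split among them, so these values are uncertain.

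The most negative difference was that of Ddrgk1, an endoplasmic reticulum protein of the UFM1 conjugation pathway (ENSMUSG00000068290, chromosome 2, 130653960 to 130664659). The Lrig1-undetected cells had 7.01, 7.44, 6.87, 8.42, 6.90, 9.28 and 7.19. The Lrig1-detected cells ranged from 0 to 8.10 with a median of 2.30. All Lrig1-undetected cells were therefore high, and cell 7 at 8.10 was the one Lrig1-detected cell within their range. The means were 2.86 (SD 2.58) and 7.59 (SD 0.92), a difference of -4.73.

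Golgb1, the Golgi tethering protein giantin, was of the same form. It ranged from 3.75 to 8.93 (median 7.38) in Lrig1-undetected cells and from 0.06 to 10.34 (median 2.44) in Lrig1-detected cells, where cells 9 and 10 were high. The difference was -3.93. Gcc2, a golgin of the trans-Golgi network, differed by -3.52 and Pigyl, a gene of glycosylphosphatidylinositol anchor synthesis, by -3.53. Srxn1, the sulfiredoxin that repairs oxidised peroxiredoxins, had values from 4.24 to 6.72 in Lrig1-undetected cells and from 0.07 to 4.96 in Lrig1-detected cells (difference -3.52). Metap2, a methionine aminopeptidase, was detected in every cell and differed by -3.14. Alkbh1, a nucleic acid demethylase, was detected in 3 of 10 and 6 of 7 cells (-3.51).

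Several of the other low genes were detected in few Lrig1-detected cells. Rasl11b, a small GTPase of the Ras type, was detected in 0 of 10 and 4 of 7 cells (-3.38). Mid1, a microtubule-associated ubiquitin ligase, was detected in 1 of 10 and 4 of 7 (-3.24), and Plscr1, a phospholipid scramblase, in 2 of 10 and 6 of 7 (-3.18). Jmjd1c, a histone demethylase family member, differed by -3.28, Cklf, a chemokine-like factor, by -3.21, and Nfs1, the cysteine desulfurase of iron-sulfur cluster assembly, by -3.14. By detection, Anapc10, a subunit of the anaphase-promoting complex, and Dab2, an endocytic adaptor, were each found in 3 of 10 and 7 of 7 cells. Cd55b, a complement regulator, was found in 2 of 10 and 6 of 7.

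**Figure D4:**
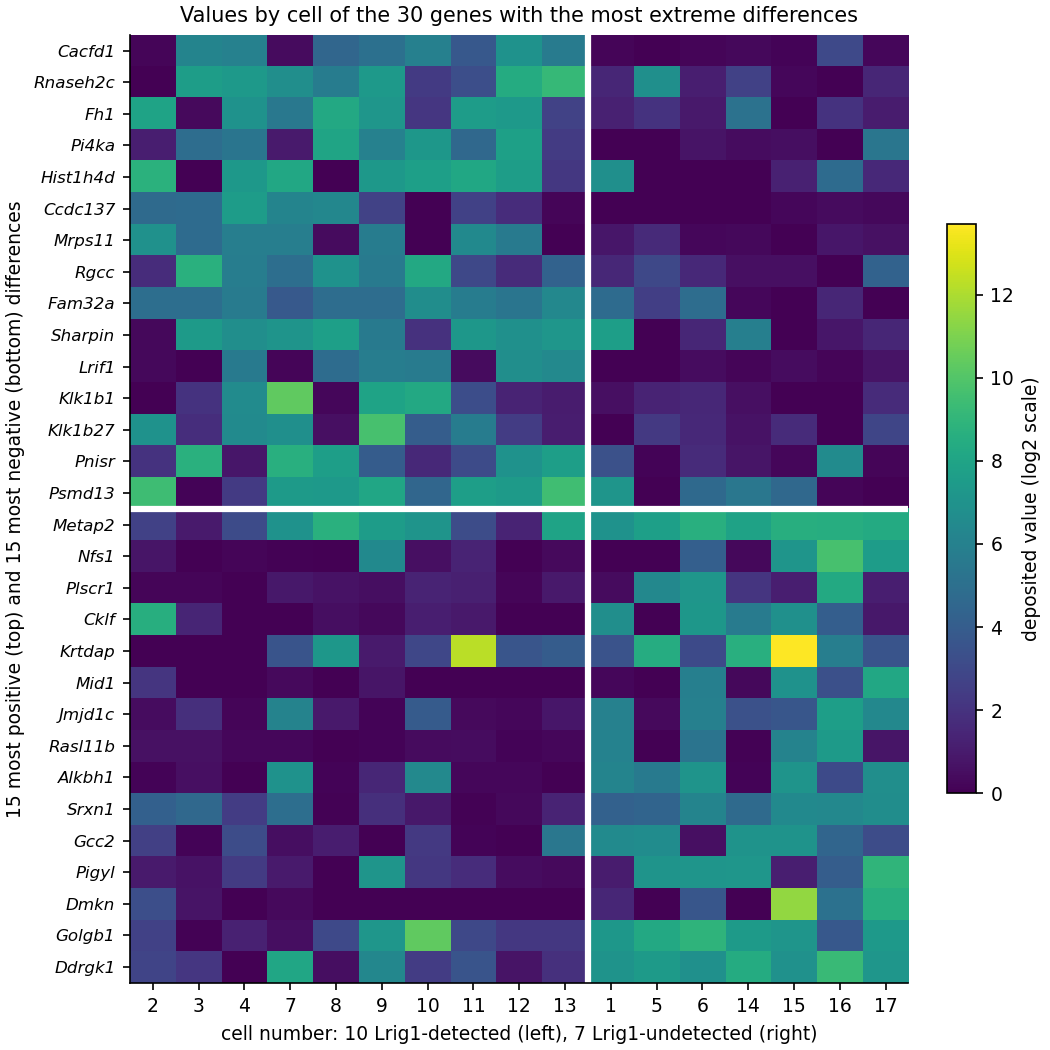
Deposited values (log2 scale, colour) of the 15 genes with the most positive and the 15 with the most negative mean difference, in the 10 Lrig1-detected cells (left) and 7 Lrig1-undetected cells (right). In each gene the values of the 2 sets overlap, for example through Ddrgk1 at 8.10 in cell 7 and Pi4ka at 5.35 in cell 17.

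For some of these genes the difference was smaller when cells were compared within their numbered sets, where cells 15 to 17, all Lrig1-undetected, drop out. Dmkn, dermokine, a secreted protein of the differentiating epidermis, was at 11.49, 5.10 and 8.60 in cells 15 to 17, at most 3.67 in the other Lrig1-undetected cells and at most 3.31 in Lrig1-detected cells. Its difference was -3.89 over all cells and -0.74 within numbered sets. Nfs1 moved likewise from -3.14 to -0.41, Mid1 from -3.24 to -1.40, Sharpin from 3.33 to 1.86 and Psmd13 from 3.25 to 1.52. Of the genes named by detection, Cd55b moved from -2.24 to -0.48, Gadd45gip1 from 2.06 to 1.06 and Dab2 from -2.56 to -1.96. Ddrgk1 kept its difference, at -4.84 within sets, and Golgb1 moved from -3.93 to -5.14. Krtdap, another product of differentiating keratinocytes, was highest in cell 15 (13.69) and in the Lrig1-detected cell 11 (12.27). It differed by -3.23 over all cells, by -3.13 within numbered sets and by -0.93 among cells 6 to 14. Of the 30 genes with the most extreme differences, 25 were still past 2 in the same direction within numbered sets.

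Lrig1 acts on the EGF receptor, and the genes of that pathway were examined as a list. Of the 23 members that are described here and reached the detection filter, 0 were higher and 0 were lower by 2, with a median difference of -0.12 (all genes 0.01), or 0.24 within numbered sets. Egfr, the receptor itself, was detected in all 17 cells. Its values ran from 2.60 to 8.86 (median 6.51) in Lrig1-detected and from 3.04 to 7.30 (median 5.77) in Lrig1-undetected cells, and the ranges overlapped almost wholly. The means were 5.96 (SD 1.95) and 5.53 (SD 1.53). Errfi1, a feedback inhibitor of the receptor, averaged 7.21 and 7.25.

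Of the ubiquitin ligases that act on the receptor, Cbl was detected in 7 of 10 and 2 of 7 cells and differed by 1.83. Cblb differed by 0.36. Spry2, a feedback inhibitor of receptor tyrosine kinase signalling, was detected in 6 of 10 and 5 of 7 cells and differed by -1.41. Within numbered sets Spry2 was at -2.25, past the call, and among cells 6 to 14 at -2.70. Downstream, Map2k2, a MEK kinase, differed by 1.54 (0.30 within numbered sets), while Braf differed by -1.17 and Grb2, the adaptor at the receptor, by -1.16.

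The relatives of Lrig1 were detected in few cells. Lrig2 was detected in cell 15 only (6.03) and Lrig3 in cells 1 and 6 only (4.53 and 3.54), all of them Lrig1-undetected. Their values in the 10 Lrig1-detected cells did not exceed 0.27 and 0.14. Rnf41, a ubiquitin ligase for EGF receptor relatives, and Dusp5, a phosphatase of ERK, were likewise detected in 2 of 7 Lrig1-undetected cells and in no Lrig1-detected cell. With 1 or 2 detected cells each, these genes did not reach the filter and no difference is read from them.

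Markers of the skin layers passed the level call at most once per list, in lists so short that the shares over all genes (2.38% higher, 2.72% lower) amount to less than 1 gene. Of 9 papillary dermis genes none passed 2 in either direction, and the median difference was -0.11. Col18a1, a basement membrane collagen, was detected in 6 of 10 and 1 of 7 cells (1.58). Pdpn, podoplanin, was detected in 5 of 10 and 7 of 7 (-1.82), Ntn1, a guidance factor, in 6 of 10 and 7 of 7 (-1.28) and Dkk2, a Wnt regulator, in 1 of 10 and 2 of 7 (-1.54). Within numbered sets Pdpn differed by -0.17 and Dkk2 by 0.23, and the list median was 0.23. Dpp4, a surface peptidase of papillary and fascial fibroblasts, was detected in 5 of 10 and 4 of 7 cells, with means of 2.58 and 2.69.

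Of 11 reticular dermis genes 1 was lower by 2, and the median was 0.16. That gene was Mfap4, a microfibril-associated glycoprotein, with a median of 0.56 in Lrig1-detected and 3.74 in Lrig1-undetected cells and a difference of -2.93. Among 17 fascia and adventitia genes none passed 2 (median -0.44). Pi16, a marker of adventitial fibroblasts, was detected in 6 of 10 and 6 of 7 cells, and Ackr3, a scavenging chemokine receptor, differed by -1.26. Among 10 dermal papilla and sheath genes, 1 was lower by 2 (median 0.27). It was Igfbp3, which binds insulin-like growth factors, with a difference of -2.71 that was -1.39 within numbered sets and turned to 0.80 among cells 6 to 14.

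Prrx1, the homeobox gene whose control sequences drive the Cre, was detected in all 17 cells. It ranged from 2.63 to 6.37 (median 4.68) in Lrig1-detected and from 4.22 to 7.31 (median 6.59) in Lrig1-undetected cells. The means were 4.79 (SD 1.13) and 6.29 (SD 1.06), a difference of -1.49, which is short of 2. Within numbered sets it was -1.12. Of the 24 mesenchymal transcription factors, none passed 2 and 12 lay on each side of 0. Zeb1 and Twist1, regulators of the mesenchymal state, differed by -1.59 and -1.55 (-1.73 and -0.95 within numbered sets).

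Among 23 stem cell and quiescence genes, 2 were lower by 2 and none was higher (median -0.18), where 2.72% of all genes were lower and 2.38% higher. Both calls ended within numbered sets, where Thy1 differed by -1.55 and Rbl2 by -1.16. Thy1, a surface glycoprotein used to sort fibroblasts, had medians of 2.01 and 4.94 and differed by -2.46. Rbl2, a pocket protein that holds cells out of the cycle, was detected in 0 of 10 and 4 of 7 cells (-2.18). Cdkn1a, an inhibitor of the cell cycle, was detected in every cell and differed by -1.76 (-1.06 within sets). Cd34, Klf4 and Itgb1 differed by -0.18, 0.50 and 0.14.

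Of 29 BMP and TGF-beta genes 1 was higher and none lower by 2, and 21 of them had a negative difference (median -0.54). Over all genes 2.38% were higher and 2.72% lower by 2. Smad7, an inhibitor of TGF-beta receptor signalling, was detected in 6 of 10 and 2 of 7 cells and differed by 2.35. Its values were between 3.66 and 5.46 in cells 2, 3, 4, 10, 11 and 12, and at most 0.17 in the other Lrig1-detected cells. In the Lrig1-undetected cells the highest was 1.40. Fst, the activin antagonist follistatin, lay just short of the call on the negative side but at -0.08 within numbered sets. Id2, a BMP target, lay at 1.94, and at 1.01 within numbered sets. Of 17 Wnt genes none passed 2 and 13 were below 0 (median -0.63). Fzd2, a Wnt receptor, Sfrp4, a secreted Wnt antagonist, and Gsk3b, a kinase of the pathway, differed by -1.96, -1.90 and -1.63. Fzd2 and Gsk3b were at -0.82 and -0.85 within numbered sets, while Sfrp4 was at -2.99 there, past the call. Within numbered sets the median was -0.23 for the BMP and TGF-beta genes and -0.23 for the Wnt genes. Among 17 IGF, FGF and PDGF genes Igfbp3 alone passed 2 (median -0.09). Pdgfrb, a PDGF receptor, differed by -1.75 and Vegfa, a growth factor for vessels, by 1.26.

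In the matrix lists the counts lay near the shares over all genes (2.38% higher and 2.72% lower). Of 19 collagens none passed 2 (median 0.16), and the largest differences were 1.58 for Col18a1 and -1.53 for Col14a1. Of 39 proteoglycans and matrix glycoproteins, Mfap4 and the fibulin Fbln1 (-2.46) were lower and none was higher (median -0.20). None of 31 matrix remodelling genes passed 2 (median 0.12). None of 12 complement genes did either (median 0.31), with C1qtnf1, a C1q-like secreted protein, at 1.78 and Cfd at 1.54. Within numbered sets these 2 genes were past the call, at 2.30 and 2.52. Of 22 chemokine and cytokine genes, Ccl7, a chemokine that draws monocytes, was lower (median of the list -0.27). It was abundant in each set, from 4.02 to 12.98 in Lrig1-detected and from 7.55 to 13.69 in Lrig1-undetected cells, and differed by -2.42.

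Genes that respond to tissue dissociation were examined next. Of 30 immediate-early and heat-shock genes, Ier3 (-2.49) and Fosl1 (-2.04), both early response genes, were lower and none was higher (median -0.13), where 2.72% of all genes were lower. Fosl1 differed by -1.37 within numbered sets. The mean over that list was 6.12 in Lrig1-detected and 6.31 in Lrig1-undetected cells. Among 19 interferon response and MHC genes, Gbp3, a guanylate-binding protein, and Irf9, a subunit of an interferon-activated transcription factor, were lower (-2.26 and -2.04, median of the list -0.12). Within numbered sets they differed by -0.79 and -1.38, short of the call, and Irf9 by 0.46 among cells 6 to 14. Among 14 adipogenic genes 1 was lower, the carbonic anhydrase Car3 (-2.13, median of the list -0.42). Car3 was high in cells 15 to 17 (4.03, 5.85 and 6.52), and within numbered sets it differed by -0.21 and the list median was 0.04.

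The counts in the next lists stand beside shares over all genes of 2.38% higher and 2.72% lower. In metabolism, 1 of 38 glycolysis and respiratory chain genes was higher (median -0.09). It was Sdha, the flavoprotein subunit of succinate dehydrogenase, with means of 5.90 and 3.54, and its difference within numbered sets was 1.58. Hk2 of the same list differed by -1.36, and by -2.25 within numbered sets. None of 36 secretory pathway and ER stress genes passed 2 (median -0.22), although the sorting receptor Kdelr1 lay at 1.80, and at 2.48 within numbered sets. Of 32 splicing and RNA-binding genes, Pnisr and the splicing factor Srsf1 (2.05, and 1.13 within numbered sets) were higher (median 0.08). Among 8 cell cycle genes, Pcna, the sliding clamp of DNA replication, was lower (-2.03, median of the list -0.30). Of 16 housekeeping genes, Sdha was higher and Hprt, a purine salvage enzyme, was lower (-2.88), with a list median of -0.21. Gusb of that list differed by -1.16, and by -2.57 within numbered sets. The 3 genes of the sex-linked list had a median of 0.23 and none passed 2.

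Over the 24 lists together, counting each gene once, 4 of 464 genes were higher by 2 (0.862%, against 2.38% of all genes) and 13 were lower (2.80%, against 2.72%). By detection 2 were found more often (0.431%, against 1.51% of all genes) and 3 less often (0.647%, against 1.36%). The list medians ran from -0.63 to 0.31.

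**Figure D5:**
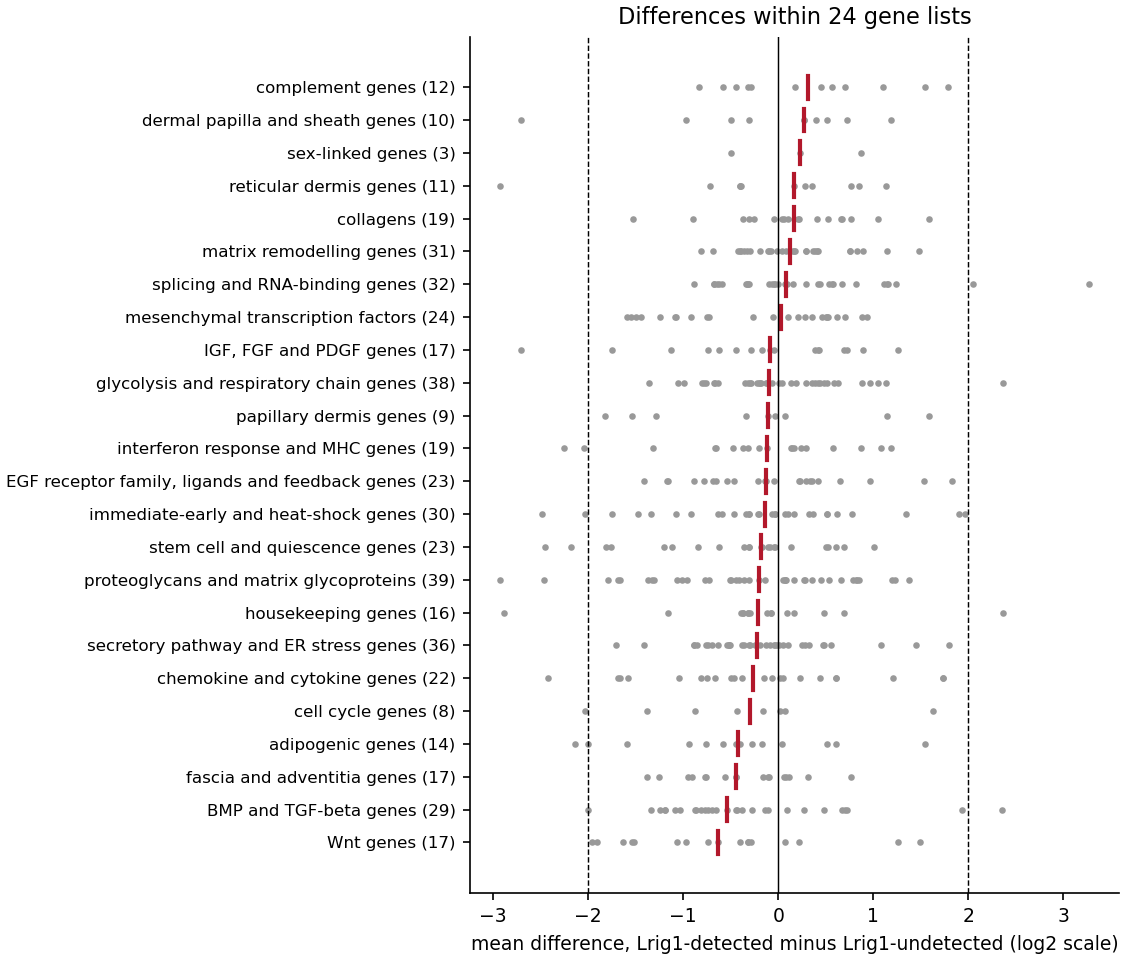
Mean difference (Lrig1-detected minus Lrig1-undetected, log2 scale) of each gene (grey points) in 24 gene lists with the number of genes in brackets, the list median in red and dashed lines at 2 and -2. The medians lie between -0.63 and 0.31 and, counting each gene once, 4 of 464 genes lie above 2 and 13 below -2.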

How the data were processed

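Single Tomato-positive cells were picked after sorting, and libraries were made with the SMART-Seq v4 3′ DE and Nextera XT kits, per the labels' protocols. TopHat2, Cufflinks and GRCm38 were used, per the submitters' processing notes, with versions not given in the sources used here. Deposited values, as the authors gave them, are on a log scale, read here as log2 values of FPKM + 1; the base and the constant are not stated, and every FPKM threshold rests on that reading. The sorted values are the same in every cell (within 0.0165 above 3), the form that quantile normalisation gives. Depth is therefore unknown, and summed expression carries no information.

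Of 8446 rows, 8431 (99.8%) matched GENCODE M21 on GRCm38 by identifier. Mean values, detection at 1 or more and non-overlap were compared between the 10 and 7 cells over 7550 genes at 1 or more in at least 3 cells. No p-value was computed, since no replicate animal is named. As a check of the code, a shift was added to either set of cells in shuffled values and came back in the mean difference. Arithmetic fixes that outcome, so the check does not bear on the calls. Named genes are the 15 highest and 15 lowest differences among genes at FPKM 10 or more in 3 cells (ribosomal protein genes and gene models left out), the next 5 each way by detection, and the 3 largest of each list. Other genes named (Rnf144a, Dcaf7, Spen, Map2k5, Klk1b24, Slc25a26, Sox9, Krt10 and further list members) were chosen after their values were seen. A few genes that the rule or the lists hold are not reported here. Members, lists and cell sets were chosen with earlier results of these data known. The alternatives changed the Lrig1 threshold, the gene filter, the pseudocount, the average, the detection threshold, the scaling and the cells compared. The tools were matplotlib 3.10.9, scipy 1.17.1, pandas 2.3.3 and numpy 2.4.6 under Python 3.11.15.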

Additional observations from a re-analysis of the deposited data

How the results depend on the processing

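The counts moved with the cells compared, while most named genes kept their direction. Counts are given in the order higher by level, lower by level, detected more often, detected less often. They were 180, 205, 114 and 103 as reported. Taking as Lrig1-detected the 15 cells above the lowest value gave 613, 783, 374 and 423, with 33 genes wholly above and 49 wholly below; only 2 cells are then Lrig1-undetected. Within cells 6 to 14, where again 2 are undetected, the counts were 611, 731, 508 and 556, with 148 and 153. Comparing within numbered sets gave 320, 397, 190 and 196, and leaving out cells 15 to 17 gave 286, 360, 231 and 224, with 4 and 1. A pseudocount of 0.1 gave 621 and 612 by level, medians 548 and 629, and rescaling each cell to a common total 274 and 298. Detection at FPKM 10 gave 71 and 65, and leaving out cells 2 and 13 gave 226, 225, 115 and 103. The Lrig1 threshold at FPKM 10 gave 201, 177, 119 and 108. Leaving out 1 cell in turn gave 196 to 242, 211 to 266, 80 to 153 and 81 to 153, with 0 to 3 genes wholly above and 0 to 1 wholly below. The identity of the genes moved more than their number: of the 180 higher and 205 lower genes, 83 and 76 were still past 2 with the threshold at FPKM 10, 112 and 123 within numbered sets, and 136 and 155 without cells 2 and 13, the 2 cells with intermediate Lrig1. Of the 30 most extreme genes, 27 were still past 2 with the threshold at FPKM 10 and 30 without cells 2 and 13. The sign was opposite with only the lowest value as undetected for Rasl11b (1.47), Cklf (2.47), Soat1 (-1.02), Gbp3 (0.74) and Pcna (0.21), and among cells 6 to 14 for Igfbp3 (0.80) and Irf9 (0.46). Why these moved was not tested. No paired analysis was possible because all cells form 1 group and the result comes from no test. The unknown depth limits what an undetected value means: a gene below 1 was under the detection threshold used here, often with a value above 0, and is not shown to be absent.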
